A study of Brassica rapa with 28 samples.

Results

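The covered leaf of the BrphyB-3 mutant was compared 24 h after it was uncovered (recovery) with the same leaf at uncovering (dark), in leaf RNA of Brassica rapa. The comparison takes 6 of the 28 libraries of the series, chosen by their labels: 3 recovery libraries and 3 dark libraries, numbered 3 to 5 and paired by that number. The mutant and its wild type are both labelled as the R-o-18 strain, and the seeds of both came from the same resource. The only mutant line was BrphyB-3, so an effect of the allele and an effect of other changes in that line cannot be told apart. Growth was at 20 °C under a day of 16 h light and 8 h dark, and plants entered the experiment at 3 weeks. Each replicate, called a plant pool here, combined the 28 mm2 punches of 3 plants, always taken 5 h after lights on. Foil was put around a leaf when the pre sample was punched from another leaf of the same plant. The 24hr sample came from that uncovered leaf 24 h later, the dark sample from the wrapped leaf 48 h after that, and the recovery sample from the unwrapped leaf after another 24 h. The recovery punch was therefore taken from a leaf that was a day older and already punched, which cannot be told apart from the return of light. The wild type served for comparison, with 4 recovery and 4 dark libraries.

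Phytochrome B is a photoreceptor for red and far-red light. In red light it turns to its active form and enters the nucleus, where it acts against a family of transcription factors that drive growth in shade and darkness. In Arabidopsis, covering a single leaf is known to lower photosynthetic gene activity and to start senescence, which light can reverse in its early phase. The series title asks about the part of this photoreceptor in the recovery of mature leaves from darkness, and the contrast described here is that recovery in plants with a mutated copy.

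The table gives counts for gene IDs that neither it nor the RefSeq table used here pairs with names, with 0 IDs matched. Genes are therefore described by their behaviour, and 4 are given by ID. The level of the phytochrome B gene and leaf markers were not used to check the labels. In the mutant, total counts were between 9580546 and 13884247 per library at recovery and between 7839529 and 11093994 at dark. Wild-type libraries had between 10103310 and 11823746 counts at recovery and between 4928822 and 12039568 at dark. No 2 of the 6 libraries were repeats of each other, the smallest chi-square per gene being 25.8 where counting noise gives about 1. Levels are given in CPM, counts scaled to a common library size, and the log2 fold change is recovery over dark throughout. All values are relative within a library, and a punch holds many cell types, so fewer cells of a type and less RNA per cell cannot be told apart.

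A large part of the genes measured differed between recovery and dark in the mutant leaf. Of 24992 genes tested, 7101 (28.4%) were higher at recovery and 6703 (26.8%) were lower, by edgeR's quasi-likelihood test paired by plant pool with a Benjamini-Hochberg adjusted p under 0.05. Together they made up 55.2% of the genes tested. With library sizes left unscaled, 6051 genes rose and 7772 fell. With the main (TMM) scaling the numbers in each direction were close, but the sizes were not. The median log2 fold change was 1.98 among the genes that rose and -1.35 among those that fell, against 0.04 over all genes tested. Among the genes that rose, 245 had no count in any dark library, and 68 of those that fell had none in any recovery library. With these set to the smallest change that a floor of 3 counts allows, the medians were 1.92 and -1.35.

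With the main scaling, large changes were more often rises. At least a 2-fold change was seen in 5956 genes that rose (23.8% of those tested) and 4637 that fell (18.6%). This order turned round with library sizes left unscaled, where 5169 rose and 5658 fell by at least 2-fold. Larger classes were counted with the main scaling only. At 4-fold or more there were 3508 that rose and 1773 that fell, and at 16-fold or more 979 and 398. At 64-fold or more there were 319 that rose and 110 that fell, which became 166 and 70 with the genes at 0 set to their floor. Small changes went the other way, since 2066 of the genes that fell changed by less than 2-fold, against 1145 of those that rose.

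**Figure D1:**
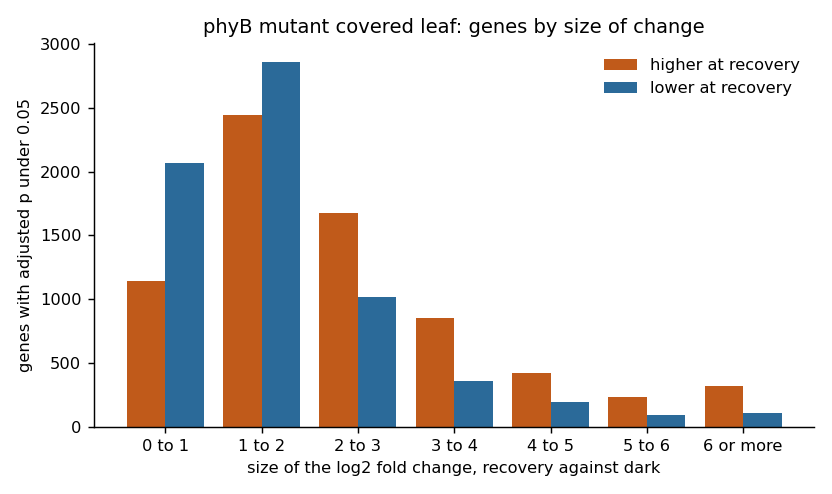
Number of mutant genes with an adjusted p under 0.05 (y axis) by the absolute size of their log2 fold change, recovery against dark (x axis), with genes higher at recovery beside genes lower at recovery. With the main (TMM) scaling, falls outnumber rises up to a log2 change of 2, and rises outnumber falls in each class above it.

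The 3 plant pools moved together, with the smallest changes in pool 4. Of the 13804 genes called, 13474 changed in the same direction in 3 of 3 pools (97.6%), against 70.6% of all genes tested. The recovery and dark libraries did not overlap for 12659 of the called genes (91.7%), against 58% of all genes tested. These counts use the contrast that made the calls and are descriptions of it. Among the genes that rose, the median log2 change was 1.96 in pool 3, 1.55 in pool 4 and 1.91 in pool 5. Among those that fell it was -1.41, -1.16 and -1.30. Pool 4 held the smallest of the 3 changes for 49.4% of the genes that rose and 48.9% of those that fell. Across the 24992 genes, the log2 changes correlated with a Pearson r of 0.824 between pools 3 and 5, 0.776 between pools 4 and 5 and 0.727 between pools 3 and 4. Genes are not independent replicates, so these values carry no p. Without pool 3, 10454 genes passed, without pool 4 12236 and without pool 5 11085.

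The genes that changed carried most of the RNA counted. The genes that rose took 60.6%, 58.2% and 58.2% of the counts in recovery pools 3, 4 and 5, against 15.1%, 18.6% and 13.5% in the dark libraries of the same pools. The genes that fell took 16.6%, 17.9% and 18.4% at recovery, against 59.6%, 53.4% and 61.8% at dark. The ranges of the groups lay far apart for both classes. These same libraries chose the genes, which fixed the direction of both differences. Genes not called took between 22.7% and 23.9% of the counts at recovery and between 24.6% and 27.9% at dark. Wild-type libraries entered the choice of these genes through the filter, scaling and spread shared by all 28 libraries, not through the contrast. In them, the same mutant risers took between 54.8% and 59.7% of the counts at recovery and between 12.0% and 20.4% at dark.

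**Figure D2:**
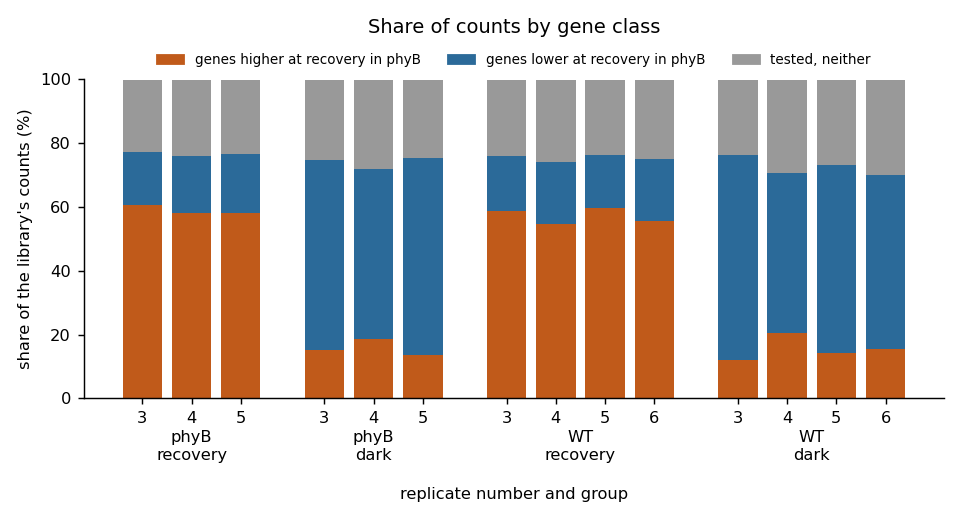
Share of each library's counts (y axis, percent) in genes higher at recovery in the mutant, genes lower at recovery in the mutant, and tested genes that were neither, one bar per library, grouped by genotype and stage with the replicate number below each bar. Risers hold 58.2% to 60.6% of the counts in mutant recovery libraries and 13.5% to 18.6% in mutant dark libraries, and the wild-type bars show the same division.

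The most abundant transcripts were largely replaced. Counts were not divided by gene length, so abundance here means share of counts. The 20 most abundant genes of each library took 11.1%, 10.9% and 12.5% of the counts at recovery in pools 3, 4 and 5, against 7.55%, 7.94% and 7.33% at dark. The share was higher at recovery in 3 of 3 pools, by 3.93 ± 1.15 percentage points (SD, n = 3 pools). By exact permutation of the signs, two-sided, p was 0.25, which is the lowest value open to 3 pairs, so 0.05 cannot be reached. Of the 20 genes, 5, 8 and 6 were shared between the recovery and dark lists of the same pool, and of the top 100, 26, 32 and 23. The lists also differed within a stage. All 3 recovery libraries had 14 of their top 20 in common, and all 3 dark libraries 9. For the top 100 these numbers were 76 and 67. They ask for all 3 libraries, where the numbers between stages ask for a pair.

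Genes abundant in a lit leaf mostly rose on uncovering. Genes were ranked by their mean level in the uncovered leaf at pre and 24hr, in libraries outside the contrast but inside the shared fit. Of the top 100, 79 rose, 8 fell and 13 did not pass, with a median log2 fold change of 2.16. Of the top 20 in that ranking, 15 rose and 1 fell. The shares of all genes that rose and fell were 28.4% and 26.8%. Ranked instead by their level in wild-type dark libraries, 74 of the top 100 genes fell in the mutant, 11 rose and 15 did not pass, with a median of -1.96.

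The balance of rises and falls followed the level of a gene. Below a mean of 1 CPM over the 6 libraries, 20.9% of 3015 genes rose and 7.33% fell. The filter on low counts used all 28 libraries, of which dark ones are the minority, and its part in this imbalance was not tested. Between 30 and 100 CPM, 29.0% of 4665 genes rose and 41.6% fell. At 300 CPM or more, 50.3% of 435 genes rose and 35.2% fell, and the median absolute log2 change was 2.00, against 0.85 between 10 and 30 CPM. The median SE of the log2 fold change was 0.60 between 1 and 3 CPM and 0.22 between 30 and 100 CPM, so a change of a given size was less likely to pass at low levels.

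Some genes were found in one state only. They are described by that choice, which largely fixes how many pass the test on the same libraries. There were 141 IDs with 0 counts in all 3 dark libraries and a mean of at least 1 CPM at recovery, and 126 of them passed the test as risers. There were 38 IDs with 0 counts in all 3 recovery libraries and at least 1 CPM at dark, and 36 of these passed as falling. At 10 CPM or more the numbers were 14 and 2. A count of 0 allows up to 3 counts per library, which was 0.290 CPM at the mean depth of the dark libraries and 0.260 CPM at that of the recovery libraries. Of the 141 IDs, 65 were also at 0 in all 4 wild-type dark libraries, and of the 38 IDs, 9 were at 0 in all 4 wild-type recovery libraries. More IDs reached 3 counts at recovery than at dark in 3 of 3 pools, by 1126 ± 232 (SD, n = 3 pools), with the same exact permutation p of 0.25. With every library thinned to the depth of the shallowest, the gain was 640 ± 550 (SD, n = 3 pools). Pools 3, 4 and 5 then had 24181, 24490 and 24341 such IDs at recovery, against 23174, 24482 and 23435 at dark, so pool 4 showed almost no gain.

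Of the 11188 genes not called, 3963 had a 95% interval of the change that lay within 2-fold either way. They were 35.4% of the genes not called, and for the rest the interval reached beyond 2-fold.

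BraA03002208 showed the largest rise in CPM of any gene that met the naming rule. It had 29829, 23163 and 29400 CPM in recovery pools 3, 4 and 5, against 3313, 6270 and 2424 CPM in the dark libraries of those pools. The groups did not overlap, which the naming rule required of all 4 genes, and pool 4 was the lowest at recovery and the highest at dark. It was the most abundant gene of the mutant leaf at recovery and the 5th most abundant at dark. Its mean was 27464 ± 3731 CPM at recovery and 4002 ± 2014 CPM at dark (SD, n = 3), and the log2 fold change of 2.85 (SE 0.53) had an adjusted p of 0.000172 in the edgeR test. In the uncovered leaf of the mutant it averaged 13502 ± 6743 CPM at pre and 9403 ± 1974 CPM at 24hr. In the wild type it averaged 15441 ± 4900 CPM at recovery and 1913 ± 1353 CPM at dark (SD, n = 4), and the log2 change was 3.09. The difference between the genotypes' changes was -0.24 (SE 0.66, adjusted p 0.951).

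BraA06002385 showed the largest fitted rise in log2 fold change, a rank that depends on the prior count since the gene had no count at dark. It had 44.9, 22.3 and 93.7 CPM in recovery pools 3, 4 and 5, against 0 counts in each of the 3 dark libraries. Against the floor over the dark group it was at least 185-fold higher at recovery (edgeR test, adjusted p 4.65e-05). The fitted log2 change of 12.52 depends on the prior count, and was 8.44 with a prior count of 2. Pool 5 was the highest of the recovery libraries and pool 4 the lowest. In the wild type it had between 28.6 and 62.9 CPM at recovery and between 0 and 5.70 CPM at dark, with 0 counts in 1 of 4 dark libraries. In the mutant's uncovered leaf it averaged 13.9 ± 14.6 CPM at pre and 20.9 ± 17.9 CPM at 24hr. The change in the mutant and that in the wild type did not differ past the threshold, with an adjusted p of 0.308.

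BraA08003014 showed the largest fall in log2 fold change. It had 0, 2 and 3 counts in recovery pools 3, 4 and 5, against 15829, 1430 and 9349 counts in the dark libraries of those pools, or 1369, 134 and 1069 CPM. Recovery libraries were thus at or under the floor, and the dark library of pool 4 was far below those of pools 3 and 5. From summed counts, the level at dark was 5942 times that at recovery, with an exact 95% interval of 2546 to 18301 that covers counting error only. The log2 fold change of -12.11 (SE 0.94) had an adjusted p of 1.46e-08 in the edgeR test. The gene had 2 counts at most in each pre and 24hr library of the mutant. In the wild type it had at most 2 counts at recovery and between 53.4 and 1812 CPM at dark, and the log2 changes differed by -0.25 (SE 2.41, adjusted p 0.993).

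BraA07001554 showed the largest fall in CPM and was the most abundant gene of the dark mutant leaf. It had 1326, 1245 and 2104 CPM in recovery pools 3, 4 and 5, against 7239, 3979 and 7452 CPM at dark. Pool 4 was the lowest at both stages. It averaged 1558 ± 474 CPM at recovery and 6223 ± 1947 CPM at dark (SD, n = 3), with a log2 fold change of -2.03 (SE 0.37, edgeR test, adjusted p 0.000163), and ranked 55th at recovery. In the uncovered leaf it averaged 2666 ± 730 CPM at pre and 3180 ± 979 CPM at 24hr. In the wild type it averaged 1778 ± 407 CPM at recovery and 3806 ± 1045 CPM at dark (SD, n = 4), a log2 change of -1.13 (SE 0.32, adjusted p 0.00507). The difference between the changes was -0.90 (SE 0.48, adjusted p 0.604).

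**Figure D3:**
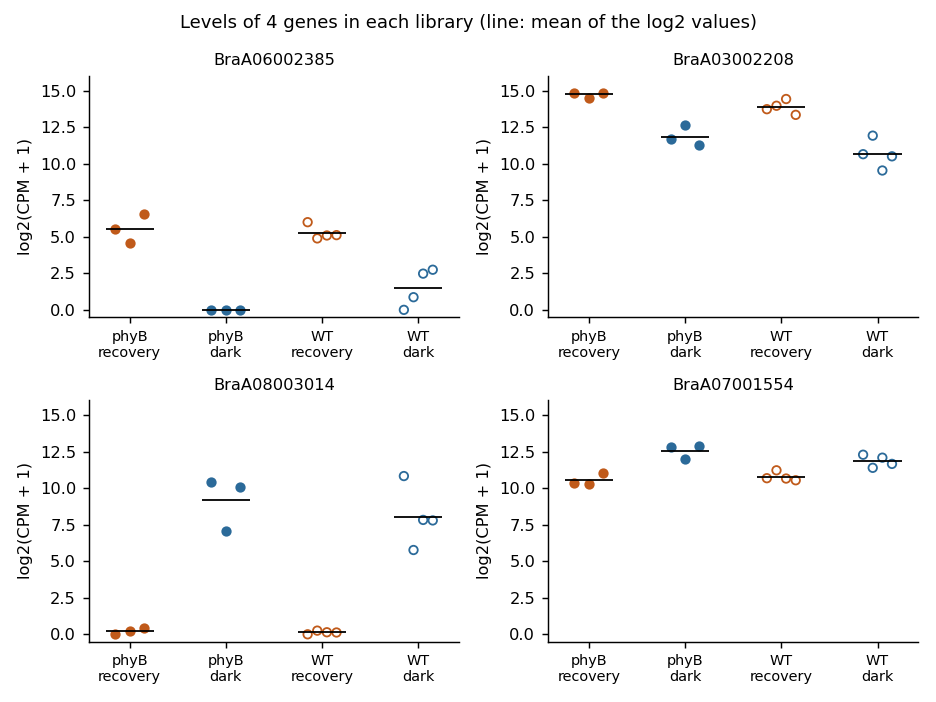
Level of the 4 genes in each library (y axis, log2 of CPM plus 1), for mutant recovery, mutant dark, wild-type recovery and wild-type dark libraries, with filled points for the mutant, open points for the wild type and a line at the mean of the log2 values. In each of the 4 genes the 3 mutant recovery points lie clear of the 3 mutant dark points, as the rule for naming them required.

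The levels of the changed genes at recovery stood near those of the uncovered leaf. The median of the mean log2 CPM of the genes that rose stood at 4.00 in the pre libraries, 3.94 at 24hr, 2.09 at dark and then 4.09 at recovery. For the genes that fell it stood at 3.63 in the pre libraries, 3.71 at 24hr, 4.90 at dark and then 3.56 at recovery. Genes not called stayed between 2.29 and 2.42. Comparisons that share libraries with the one described are given side by side only, since the dark or recovery libraries enter both. For the genes that rose, the median log2 change was 1.98 for recovery against dark, -1.84 for dark against pre, 0.08 for recovery against pre and 0.19 for recovery against 24hr. For those that fell, the medians were -1.35, 1.27, -0.04 and -0.11. Over all genes tested, recovery against pre passed in 584 genes (2.34%), 278 higher and 306 lower, and recovery against 24hr in 1412 (5.65%), 667 higher and 745 lower. At an unadjusted p under 0.05 (edgeR), recovery against pre had 3960 genes (15.8%) and recovery against 24hr 4918 (19.7%). Both of these comparisons also cross from one leaf to another.

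**Figure D4:**
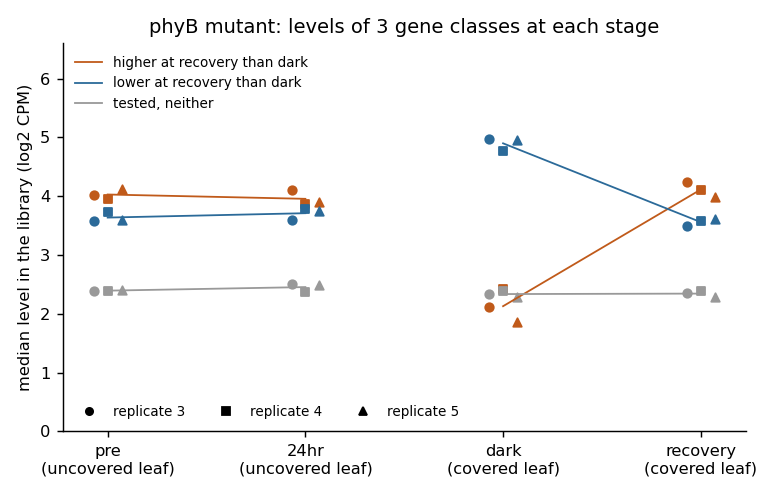
Median log2 CPM in each mutant library (y axis) of genes higher at recovery than at dark, genes lower at recovery than at dark and genes that were neither, at pre and 24hr (uncovered leaf) and at dark and recovery (covered leaf), with a symbol for each replicate and lines joining the means within a leaf. The joined means are 2.13 at dark and 4.11 at recovery for the risers, and 4.90 and 3.56 for the fallers.

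The wild type, measured in separate libraries, changed in much the same genes. In the wild type 14708 genes (58.9% of those tested) differed between recovery and dark, 7582 higher (30.3%) and 7126 lower (28.5%), by the same test. With library sizes left unscaled the split was 6051 higher and 7772 lower in the mutant, and 5949 higher and 9237 lower in the wild type. The median log2 change of all genes then shifted by -0.18 in the mutant and by -0.30 in the wild type. Of the mutant's 7101 risers, 5967 also rose in the wild type, 11 fell there and 1123 did not pass. Of its 6703 fallers, 5644 also fell, 9 rose and 1050 did not pass. The genes called in the same direction in both were 84.1% of the mutant's calls and 78.9% of the wild type's. The mutant's risers had a median log2 change of 1.75 in the wild type, and its fallers -1.14. The contrast that chose the genes does not use these changes, though its filter, scaling and spread were shared with the wild-type libraries.

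The 2173 genes called in the mutant and not in the wild type were not thereby shown to differ. Of them, 1900 had the same sign of change in the wild type, and 2 passed the test of the difference between genotypes. Their median absolute log2 change in the mutant was 1.20, against 1.73 for the genes called in both.

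The size of the change was also alike at the level of pools. In genes that changed at least 2-fold in the mean of both genotypes, 6551 higher and 4917 lower, the median log2 change of the higher genes was 2.13, 1.71 and 2.12 in mutant pools 3, 4 and 5. It was 2.34, 1.60, 2.11 and 1.86 in wild-type pools 3, 4, 5 and 6. For the lower genes the medians were -1.79, -1.48 and -1.69 in the mutant and -1.89, -1.24, -1.71 and -1.48 in the wild type. The mutant pools lay inside the wild-type range in both classes. These genes were chosen by the mean change in the same libraries, which favours genes that change in both genotypes. The likeness is therefore a description of that choice as well. Pool 4 was the lowest of each genotype, though the 2 pools share only a number.

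Whether a gene changed differently in the mutant was tested as the genotype by stage contrast. It passed in 16 genes (0.064% of those tested). The change was more positive in the mutant in 5 (0.02%) and more negative in 11 (0.044%). At an unadjusted p under 0.05 (edgeR) there were 2284 genes (9.14%). The smallest difference that passed was 1.62 in absolute log2, and the median SE of the difference was 0.47. Smaller differences could therefore go uncalled, and genes that did not pass were not shown to change alike. Among the 16, the adjusted p-values (edgeR, Benjamini-Hochberg) were 0.0296 at the lowest and close to the threshold at the highest. In 7 of the 16 the change had the same sign and was smaller in the mutant, and 6 of these 7 rose in the wild type. In 8 the sign was opposite, with log2 changes between -1.77 and 1.81 in the mutant and between -0.91 and 2.22 in the wild type. Of these 8, 6 passed for recovery against dark in the mutant (3 higher, 3 lower) and 6 in the wild type (4 higher, 2 lower), so some of the signs belong to changes that did not pass. The last had a fitted change of 7.38 in the mutant, where it had 0 counts in all 3 dark libraries, so that value depends on the prior count, and 1.45 in the wild type. In all 16, the changes of the 3 mutant pools lay outside the range of the 4 wild-type pools, which held for 7.02% of all genes tested. The 16 were called on these same pool changes, so the separation describes the calls and adds no support. The number was not stable: it was 0 without the pairing by pool, 216 by the DESeq2 Wald test, and 0 without mutant pool 3 or 4 or without wild-type pool 4 or 5.

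**Figure D5:**
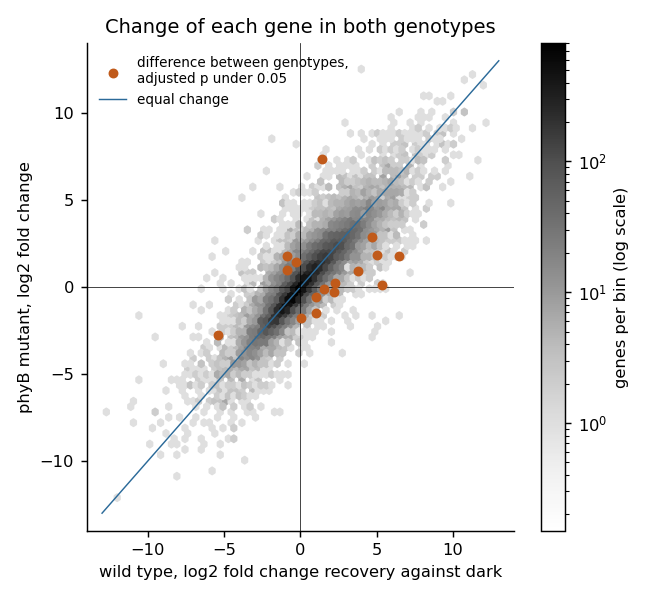
Log2 fold change of each gene, recovery against dark, in the mutant (y axis) and in the wild type (x axis), shaded by the number of genes per bin on a log scale, with the line of equal change and the 16 genes whose change differed between genotypes at an adjusted p under 0.05. Most genes lie along the line, and 11 of the 16 points lie below it.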

How the data were processed

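Libraries of poly(A) RNA were sequenced as single reads of 80 bases, per the labels' protocols. The submitters' processing notes name bcl2fastq 2.17.1.14, Trimmomatic 0.36, Bowtie2 and HTSeq. The genome build, annotation and strand setting are not given in the sources used here, so near-identical paralogs and overlapping or antisense genes are uncertain. The deposited table holds raw counts of 48826 gene IDs in 28 libraries, of which 12503 IDs are at 0 throughout. All columns were matched to samples by title.

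Analyses used R 4.3.3. The filterByExpr function of edgeR 4.0.16 was applied to low counts and left 24992 IDs with 99.9% of all counts. Libraries were scaled by TMM. A quasi-likelihood model with plant pool as a block and stage within genotype was fitted to all 28 libraries, with 15 residual degrees of freedom. P-values were adjusted over all genes tested. The SE is the absolute log2 fold change over the square root of F, and is approximate. Log2 CPM used a prior count of 2. The models were tested on simulated counts with 200 changed genes, far fewer than passed here. That test therefore does not bear on scaling when most genes change. The report gives the range of depth per group. Floors and the interval from summed counts cover counting error only, while the interval of a log2 change comes from the fitted SE.

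Same-numbered dark and recovery libraries came from the same leaves, per the labels' protocols, which is why they were paired. Deviations from group means correlated between 0.0119 and 0.206 within pools and between -0.208 and 0.139 across pools.

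Named genes passed the test, had at least 10 CPM in the higher group, moved the same way in 3 of 3 pools and did not overlap between groups. Of 9089 such genes (4187 higher, 4902 lower), the extremes of log2 fold change and of CPM difference in each direction were named. Lists by gene function were not used, since IDs had no names. The comparison, rules and tests were chosen with earlier results of these data known. Alternatives were no block, only the groups compared, the DESeq2 1.42.0 Wald test, RLE, upper-quartile and no scaling, no filter, another prior count, and each pool left out.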

Additional observations from a re-analysis of the deposited data

Results flagged for a closer look

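The change from dark to recovery differed between the mutant and the wild type in 16 genes by a test of the difference itself (edgeR quasi-likelihood with the pool as a block), a number that ranged from 0 to 216 over the alternatives.

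In 3 cases a wild-type library stood far from the other 3 of its group for a named gene. BraA08003014 had 1812 CPM in wild-type dark replicate 3, against 53.4 to 225 CPM in the others. BraA06002385 had 62.9 CPM in wild-type recovery replicate 3, against 28.6 to 33.5 CPM. BraA07001554 had 2381 CPM in wild-type recovery replicate 4, against 1484 to 1637 CPM. Such a gap was looked for in 18 groups of 4 wild-type values, of which chance flags about 1 in 20, and 3 were found. Mutant groups of 3 were too small for this rule.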

How the results depend on the processing

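The counts for recovery against dark kept within 1.5 times under each of 14 alternatives. They ranged from 10251 (only the groups compared, with the block) to 14434 (DESeq2) in the mutant and from 11506 to 15220 in the wild type. As a share of the genes tested, the calls in the mutant ranged more widely, with 10454 of 25333 without pool 3 and 13067 of 36323 without a filter on low counts. Mutant genes with at least a 2-fold change ranged from 8629 to 10922. The 4 named genes kept their direction and passed in all 15 alternatives, with a highest adjusted p of 0.0128 (edgeR or DESeq2). They were extremes among genes required to pass in these same counts, which largely fixes that outcome. The pool block changed no call of a named gene. Without the block 13249 genes passed in the mutant, 12977 of them among the 13804 of the paired fit. The number of genes that differed between genotypes, 16 in the paired fit, was 0 without the block (1987 at an unadjusted p under 0.05) and 0 with only the groups compared (1456 unadjusted), both by edgeR. It was 216 by DESeq2, which included all 16, and 10 with library sizes unscaled. It ranged from 0 to 14 without 1 pool, with 5 when wild-type pool 3 was left out, 1 for wild-type pool 6 and 14 for mutant pool 5, of which 4 were among the 16. The fits at 0 without 1 pool (edgeR) had between 1412 and 2540 genes at an unadjusted p under 0.05. The cause was not tested. The gain in the share of the 20 most abundant genes ranged from 3.28 to 4.40 percentage points without 1 pool, and that in detected IDs from 999.5 to 1227, with 816 at a limit of 1 CPM. Depth limits genes below about 3 CPM, where the SE was largest, and 3 mutant pools limit the sign permutation tests to a p of 0.25.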

Other observations

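The gene IDs fall into 10 numbered series, A01 to A10, and a series for scaffolds. In the mutant, the share of tested genes that passed for recovery against dark was between 53.2% (A07) and 57.0% (A05 and A06) in the numbered series, and 50.9% in the scaffold series, where 234 of 1309 IDs were tested. Against the 28.4% of all genes that rose, the share was 31.0% in series A04, where 25.2% fell, and 27.4% in series A02 and A10. Series A05 was the one numbered series in which more genes fell (29.2%) than rose (27.8%). These shares were not tested against each other.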
